A study of Mus musculus with 10 samples.

Results

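The 10 genes described here are the imprinted growth-control genes and noncoding RNAs H19, Meg3, Rian, Mirg, Grb10, Peg3, Mest, Plagl1, Ndn and Zdbf2. They were chosen by symbol from the 18384 genes listed in at least 1 mRNA-seq library of this series, and each of the 10 had reads in every library. The cells were adipocyte precursors (APs) from the subcutaneous white adipose tissue of C57BL/6J mice, isolated with magnetic beads by removing cells positive for CD45 (leukocytes) or CD31 (endothelium) and then keeping cells positive for SCA-1. Both groups were grown in the same serum-containing medium, without an adipogenic cocktail. Control cultures received no IL-4, and the other cultures received the type 2 cytokine IL-4 from a day after seeding. The age of the mice and the dose of IL-4 are not given in the sources used here. Poly(A) mRNA was sequenced from 3 control cultures (replicates 1 to 3) and 3 IL-4 cultures (replicates 4 to 6) on day 4. Small RNA was sequenced from 2 control and 2 IL-4 cultures on day 2. The small RNA cultures are described as biological replicates. Nothing says so of the mRNA cultures, so their p-values measure the spread between these samples, which may be technical.

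An imprinted gene is transcribed from the copy inherited from one parent, because DNA methylation laid down in the egg or sperm marks a control region and is kept through every later cell division. Many imprinted genes act on growth. As a rule, paternally expressed genes such as Igf2 favour growth of the embryo and maternally expressed genes such as Cdkn1c and Grb10 restrain it. Of the 10 genes, H19, Meg3, Rian, Mirg and Grb10 are known as maternally expressed in most mouse tissues, and Peg3, Mest, Plagl1, Ndn and Zdbf2 as paternally expressed. H19, Meg3, Rian and Mirg are long noncoding RNAs, and the others encode proteins. In stem and progenitor cells of adult tissues, several of these genes are known as part of a network that is active in the growing animal and falls as growth ends. The files give no reads by parental allele, so every value below is the sum of both copies. H19 is a different locus from H19X, which holds a cluster of miRNA genes on the X chromosome.

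Several of the noncoding RNAs are also known as hosts of miRNAs. In the RefSeq annotation of GRCm38 (mm10), H19 lies on the minus strand at chr7:142575530-142578146 and holds the hairpin of miR-675 in its exons. Meg3 (chr12:109540996-109571729), Rian (chr12:109603945-109661716) and Mirg (chr12:109734981-109749458) follow each other on the plus strand, and 57 miRNA hairpins lie between the start of Meg3 and the end of Mirg. Mest lies on the plus strand at chr6:30733506-30748466 and holds miR-335 in an intron. The mature sequences below are those of RefSeq, on which the rest of the description turns: both arms of miR-675 and of miR-335, and the 5 miRNAs of the chromosome 12 interval with the highest mean normalized count. Capitals mark the seed, bases 2 to 8 from the 5′ end, which pairs with target mRNAs.
miR-675-5p: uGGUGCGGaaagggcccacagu
miR-675-3p: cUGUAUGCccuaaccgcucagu
miR-335-5p: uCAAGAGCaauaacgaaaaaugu
miR-335-3p: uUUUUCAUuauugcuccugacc
miR-127-3p: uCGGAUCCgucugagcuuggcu
miR-411-5p: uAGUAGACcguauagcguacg
miR-541-5p: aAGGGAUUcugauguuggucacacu
miR-434-3p: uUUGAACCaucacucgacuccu
miR-136-3p: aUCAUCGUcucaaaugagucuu
No 2 of these 9 miRNAs share a seed. Among the 99 mature miRNAs of the interval that the files list and that have a RefSeq sequence in the table used, 7 seeds are each held by 2 miRNAs. One such pair is the 3p arms of the neighbouring hairpins of miR-379 and miR-411, which differ outside the seed.
miR-379-3p: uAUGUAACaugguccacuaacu
miR-411-3p: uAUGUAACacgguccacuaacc

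The mRNA libraries held 28526782 to 29057787 expected counts and the small RNA libraries 23790821 to 32061504 reads of mature miRNAs. Control replicate 3 and IL-4 replicate 6 stood apart from the other 4 mRNA libraries. Within its group, the median log2 deviation of genes with transcripts over 5000 bases was lower than that of genes under 1500 bases by 0.21 in control replicate 3 and by 0.44 in IL-4 replicate 6, whereas it was 0.05 to 0.26 higher in the others. Peg3, Zdbf2, Grb10 and Plagl1 have transcripts near or above 5000 bases. Meg3 has transcripts of 11473, 11461 and 1913 exonic bases, and weighted by the level of each its length was 3197 to 3422 bases. Where leaving out control replicate 3, IL-4 replicate 6 or both changed a call or a count by over 1.5 times, this is given beside the result. All 8 AP markers were read in every library, among them Ly6a, which encodes SCA-1. So were all 10 macrophage markers, although CD45-positive cells had been removed. The summed FPKM (reads per length of transcript, relative to library size) of the macrophage markers was 3035 to 3891 in controls and 1202 to 1538 with IL-4. Most of that sum was Lyz2, with a mean FPKM of 2739 in controls and 776 with IL-4. Of the 10 markers, 8 were lower and 1 higher (Mrc1, a mannose receptor of macrophages, which IL-4 is known to raise). Of all genes tested, 18.4% were lower and 19% higher. For the AP markers the sum was 1100 to 1146 in controls and 1138 to 1209 with IL-4. Most of it was Thy1 and Itgb1, which were not called by the test below. Of these 8 markers 4 were higher, among them Cd34 10.2-fold, Pi16 16.3-fold and Ly6a 2.29-fold, and 1 was lower (Pdgfrb, 1.58-fold). The same shares of all genes stand beside these counts. The summed FPKM of 6 endothelial markers was at most 13.5 in any library. The T cell genes Cd3d, Cd3e and Cd3g and the adipocyte genes Cidec and Lep were listed in no library. The part of this shift in cell markers in the results below was not tested, and in bulk cultures fewer cells of a type and less RNA per cell cannot be told apart.

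Of the 5 maternally expressed RNAs, 3 were higher in IL-4-treated APs, and of the 5 paternally expressed mRNAs 3 were lower. This grouping by allele was made after the values were seen, and the split was not as clean among other imprinted genes. H19 was 2.80-fold higher, Mirg 1.61-fold higher and Meg3 1.25-fold higher, while Mest was 2.35-fold, Zdbf2 2.52-fold and Plagl1 1.40-fold lower. Rian, Grb10, Ndn and Peg3 did not pass the test. These calls come from edgeR's quasi-likelihood test on rounded expected counts with p-values adjusted by Benjamini-Hochberg across the 14009 genes that passed the count filter, at an adjusted p under 0.05. Of all genes tested, 19% were higher and 18.4% were lower by the same rule, so the 3 of 10 in each direction stand against that background. Past the study's own threshold, which adds a log2 fold change beyond 1, were 3 of 10 (H19, Mest and Zdbf2) against 11% of all genes. The normalized counts of the groups did not overlap for 9 of the 10, against 50.4% of all genes. The 10 genes were chosen with earlier results of these data known, so these shares say nothing about imprinted genes as a class. The median log2 fold change was 0.15 over the 10 genes and 0.0026 over all genes. Without control replicate 3 and IL-4 replicate 6, 5 of the 10 were higher and 2 lower, against 50.5% of all genes called in either direction. The calls of Meg3 and Zdbf2 held in 10 and 9 of 15 other settings.

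**Figure D1:**
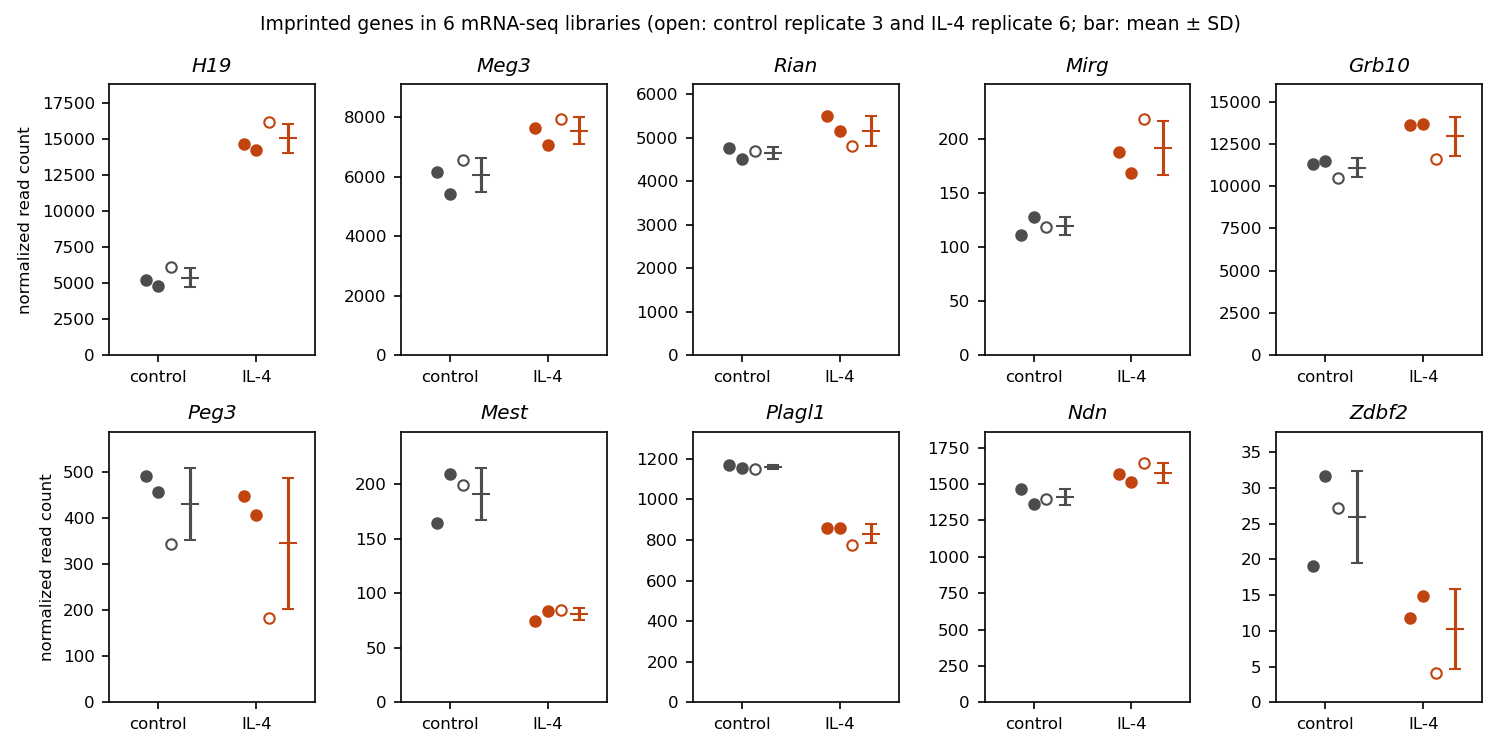
Normalized read counts of the 10 imprinted genes (vertical axes, each from 0) in 3 control and 3 IL-4 libraries, 1 point per library, with the mean and SD of each group to the right of its points. Open points are control replicate 3 and IL-4 replicate 6. The groups are apart for every gene but Peg3, where IL-4 replicate 6 lies at 182 and the other IL-4 libraries within the range of the controls.

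H19 is one of the most abundant noncoding transcripts of the embryo and falls after birth in most tissues. It restrains growth through its RNA and through miR-675. In controls it had 5217, 4821 and 6099 normalized counts, and with IL-4 it had 14693, 14275 and 16203. The lowest IL-4 library was thus far above the highest control. The log2 fold change was 1.49 ± 0.10 (SE, n = 3 and 3), with an adjusted p of 1.30e-05 in edgeR's test, and it lay between 1.41 and 1.58 with any one library left out. By FPKM, H19 was at 89.2 ± 11.7 (SD, n = 3) in controls, between ranks 651 and 826 of the genes in a library. With IL-4 it was at 221 ± 18.7 (SD, n = 3), between ranks 256 and 270. It was then the highest of the 10 genes, whereas in controls its FPKM range overlapped that of Grb10.

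The partner of H19 is Igf2, a fetal growth factor that shares its enhancers and is expressed from the other allele. Igf2 had 117 to 128 normalized counts in controls and 225 to 264 with IL-4, a log2 fold change of 0.99 ± 0.10 (SE, n = 3 and 3, edgeR adjusted p = 0.00018). Both RNAs of the locus therefore rose. The ratio of H19 to Igf2 by FPKM was 58.0, 63.9 and 69.4 in controls and 76.7, 90.7 and 90.2 with IL-4. The ratios of the groups did not overlap, and the exact two-sided permutation test gave p = 0.10, the smallest that 3 against 3 allows (adjusted p = 0.15 over the 3 ratios computed). miR-675, cut from H19 RNA, was scarce on day 2. Its 3p arm had 45 and 24 reads in controls and 42 and 46 with IL-4, and its 5p arm 3 and 5 reads against 4 and 7, which was below the count filter. The log2 fold change of miR-675-3p was 0.07 ± 0.49 (SE, n = 2 and 2), with a 95% interval of -1.09 to 1.23 (unadjusted p = 0.89 in edgeR's test across 640 miRNAs). The upper end of that interval lies below the 1.49 fitted for H19 RNA, which was measured on another day.

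Meg3, Rian and Mirg are processed from what is thought to be a single long maternal transcription unit. Meg3 is known as a growth-suppressing RNA, Rian hosts small nucleolar RNAs and Mirg hosts miRNAs. Meg3 had 6181, 5425 and 6561 normalized counts in controls and 7660, 7060 and 7942 with IL-4. The groups were apart, by less than the range of the controls. The fitted log2 fold change was 0.32 ± 0.08 (SE, n = 3 and 3, edgeR adjusted p = 0.019). This call was lost in 5 of 15 other settings: without control replicate 1 (adjusted p = 0.059) or control replicate 2 (adjusted p = 0.067), when library totals replaced TMM scaling (0.15, adjusted p = 0.22) and in both limma fits of FPKM. On the plus strand, 4091 exonic bases of Meg3 lie opposite exons of Rtl1. Here and below, such overlaps take in exons of any RefSeq transcript of the other gene, not only of those counted. The library protocol names no step that keeps strand, so reads of the stretch shared by Meg3 and Rtl1 cannot be assigned to either. Rtl1 itself had 16 to 35 reads.

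Rian had 4760, 4506 and 4704 normalized counts in controls and 5512, 5149 and 4816 with IL-4. Every IL-4 library lay above every control, but a log2 fold change of 0.15 ± 0.07 (SE, n = 3 and 3, edgeR adjusted p = 0.12) did not pass. Its 95% interval was -0.0045 to 0.30. Without IL-4 replicate 6 it passed (0.20, adjusted p = 0.013), and under library totals its sign turned (-0.026, adjusted p = 0.76). Mirg is the least abundant of the 3. It had 111, 128 and 118 normalized counts in controls and 187, 169 and 218 with IL-4. The log2 fold change of 0.68 ± 0.13 (SE, n = 3 and 3, edgeR adjusted p = 0.0037) was past the threshold under all 15 other settings tried, with adjusted p-values of 4.29e-05 to 0.021.

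By FPKM, controls held 68.5 ± 8.65 of Meg3, 48.7 ± 1.71 of Rian and 3.52 ± 0.23 of Mirg (SD, n = 3), and IL-4 cultures held 77.7 ± 6.48, 47.8 ± 2.59 and 5.01 ± 0.73. The order of the 3 RNAs was thus the same in both groups. The ratio of Meg3 to Rian was 1.40 ± 0.13 in controls and 1.63 ± 0.19 with IL-4 (SD, n = 3, exact two-sided permutation p = 0.30, adjusted p = 0.30), and its ranges overlapped. The ratio of Rian to Mirg was 15.1, 12.5 and 14.1 in controls and 10.4, 10.8 and 7.84 with IL-4. These did not overlap (exact two-sided permutation p = 0.10, the smallest possible, adjusted p = 0.15).

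The other genes of the domain are expressed from the paternal copy. Dlk1, a Notch-like membrane protein of preadipocytes that is known to hold back adipogenesis, had 204, 156 and 178 normalized counts in controls and 73.8, 121 and 145 with IL-4. A log2 fold change of -0.67 ± 0.23 (SE, n = 3 and 3) passed narrowly (edgeR adjusted p = 0.049) and was lost in 6 of 15 other settings. Dio3, a deiodinase that inactivates thyroid hormone, had 161 to 248 normalized counts in controls and 63.0 to 86.5 with IL-4 (log2 fold change -1.44 ± 0.20, SE, n = 3 and 3, edgeR adjusted p = 0.00070). Rtl1, a retrotransposon-derived gene needed in the placenta, had 16 to 29 reads in controls and 22 to 35 in IL-4 cultures (adjusted p = 0.28). So 2 maternal RNAs of the domain were higher and 2 paternal mRNAs lower, with Rian and Rtl1 not passing. Of all genes tested, 19% were higher and 18.4% lower, and the calls of Meg3 and Dlk1 depended on the setting.

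Grb10 encodes an adaptor protein that dampens insulin and IGF signalling. It had 11320, 11506 and 10469 normalized counts in controls and 13605, 13646 and 11625 with IL-4. The groups were barely apart, with control replicate 2 just under IL-4 replicate 6. Its log2 fold change was 0.22 ± 0.08 with a 95% interval of 0.038 to 0.41, and did not pass (SE, n = 3 and 3, edgeR adjusted p = 0.061). Without IL-4 replicate 6 it passed (0.30, adjusted p = 0.0016), as it did without both libraries that read long transcripts less (0.26, adjusted p = 3.5e-05). By FPKM Grb10 was at 81.8 ± 3.07 in controls and 85.1 ± 5.03 with IL-4 (SD, n = 3), with overlapping ranges. In controls Grb10, H19 and Meg3 were the highest of the 10 genes, and the ranges of H19 and Meg3 (59.0 to 76.0) did not overlap.

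Among the paternally expressed genes, Mest fell most clearly. Mest encodes a membrane protein of the endoplasmic reticulum with a hydrolase fold, known for its rise when adipose tissue expands. It had 164, 209 and 199 normalized counts in controls and 74.9, 83.3 and 84.7 with IL-4. Every IL-4 library was far below the lowest control, and the log2 fold change was -1.24 ± 0.13 (SE, n = 3 and 3, edgeR adjusted p = 0.00019). By FPKM it fell from 2.80 ± 0.34 to 1.05 ± 0.09 (SD, n = 3). The end of Mest overlaps 913 exonic bases of Copg2 on the other strand, whose reads cannot be told apart there. Copg2 had 1059 to 1249 normalized counts in the 6 libraries and did not pass (adjusted p = 0.46).

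miR-335 lies in an intron of Mest. On day 2 its 5p arm had 347 and 184 reads in controls and 411 and 252 with IL-4, and its 3p arm 274 and 319 against 429 and 512. For miR-335-5p the 2 controls differed by more than the groups did. The log2 fold change was 0.07 ± 0.51 for miR-335-5p (SE, n = 2 and 2, 95% interval -1.14 to 1.28) and 0.44 ± 0.22 for miR-335-3p (-0.083 to 0.96, unadjusted p = 0.087, edgeR adjusted p = 0.83). Neither arm passed the test, and neither fitted value was below 0 as that of Mest mRNA was on day 4.

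Plagl1 encodes a zinc finger transcription factor that can arrest the cell cycle and is known to regulate other imprinted genes. It varied least of the 10 among controls, with 1170, 1156 and 1151 normalized counts, and had 858, 857 and 776 with IL-4. This was a log2 fold change of -0.48 ± 0.07 (SE, n = 3 and 3, edgeR adjusted p = 0.00067), which passed under all 15 other settings. By FPKM it was at 8.18 ± 0.08 in controls and 5.20 ± 0.21 with IL-4 (SD, n = 3). The noncoding gene Hymai shares 180 exonic bases with Plagl1 on the same strand and is not among the listed genes.

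Zdbf2, known for a growth-promoting role in the hypothalamus of the newborn, was near the limit of detection. It had 20, 33 and 29 reads in controls and 11, 14 and 4 with IL-4. The groups were apart, with IL-4 replicate 6 the lowest. The fitted log2 fold change was -1.33 ± 0.40 (SE, n = 3 and 3, edgeR adjusted p = 0.032). At under 0.1 FPKM in every library it was the lowest of the 10 genes, and its transcripts are the longest, with 12571 to 12705 exonic bases. Without control replicate 3 and IL-4 replicate 6 it was at -0.92 and no longer passed (adjusted p = 0.058), and it was also lost without control replicate 2, control replicate 3 or IL-4 replicate 4 (adjusted p = 0.11, 0.083 and 0.062) and in both limma fits of FPKM (adjusted p = 0.16 and 0.053), in all 6 of 15 other settings.

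Ndn encodes necdin, a protein of post-mitotic and slowly dividing cells that binds E2F factors and is known to restrain preadipocyte proliferation. It had 1470, 1361 and 1400 normalized counts in controls and 1567, 1513 and 1646 with IL-4. The groups did not overlap, but the log2 fold change of 0.16 ± 0.06 did not pass (SE, n = 3 and 3, 95% interval 0.016 to 0.30, edgeR adjusted p = 0.080), and it turned to -0.012 under library totals. Its FPKM was 32.8 ± 1.40 in controls and 32.5 ± 1.89 with IL-4 (SD, n = 3).

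Peg3 encodes a zinc finger protein with a role in apoptosis and in the TNF response, and it marks stem and progenitor cells of many adult tissues. It had 490, 456 and 342 normalized counts in controls and 446, 406 and 182 with IL-4. In each group the lowest value belonged to the library that read long transcripts less, and the groups overlapped. The log2 fold change was -0.32 ± 0.30 (SE, n = 3 and 3, 95% interval -1.01 to 0.37, edgeR adjusted p = 0.45), and it was -0.0070 without IL-4 replicate 6. With the skew of each library as a covariate, chosen after the data had been seen, it was -0.40 and passed (adjusted p = 0.00038), in a fit that called 61.4% of all genes. Peg3 transcripts have 6624 exonic bases, of which 865 lie opposite Peg3os.

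**Figure D2:**
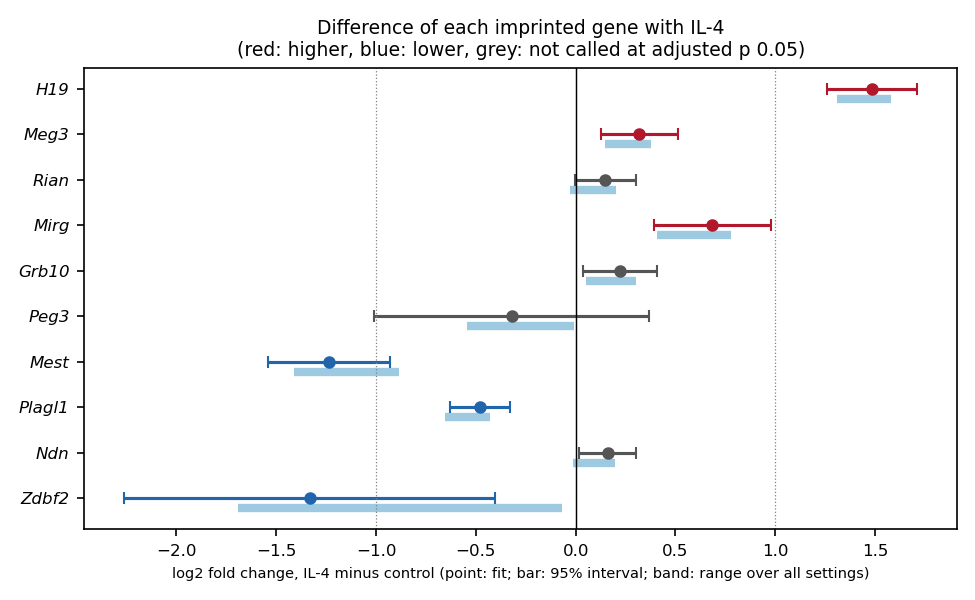
Fitted log2 fold change of each imprinted gene (IL-4 minus control, horizontal axis) with its 95% interval, red where higher, blue where lower and grey where not called. The pale band under each point spans the fitted values over the main and all 15 other settings. H19 stays above 1 throughout, the band of Zdbf2 runs from -1.69 to -0.069 and those of Rian and Ndn reach across 0.

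Beyond these 10, a list of 49 other mouse genes under imprinted control was read in the same fit. Of these, 4 were listed in no library (Calcr, Magel2, Zfp264 and Kcnk9) and 38 had enough reads to be tested. 9 were higher, 6 were lower and 23 did not pass, which is 39.5% called against 37.4% of all genes. The median log2 fold change was 0.06. A share so near that of all genes says nothing particular about imprinted genes. Past both the call threshold and a log2 fold change of 1 were 6, of which 2 were higher and 4 lower. Under library totals, which lower the median of all genes by 0.17, the split was 5 higher and 12 lower, where 47.6% of all genes were called. Without control replicate 3 and IL-4 replicate 6 it was 7 higher and 6 lower.

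Around H19 on distal chromosome 7, Ascl2, a transcription factor of trophoblast and stem cells, rose from 7.68 to 9.38 normalized counts to between 13.9 and 31.0 (log2 fold change 1.27 ± 0.38, SE, n = 3 and 3, edgeR adjusted p = 0.031), a call lost in 7 of 15 other settings. Cdkn1c, an inhibitor of cyclin-dependent kinases, rose from between 426 and 488 to between 587 and 724 (0.47 ± 0.10, adjusted p = 0.0069) and was lost in 3 of 15. On chromosome 17, Igf2r, the receptor that clears IGF2, had 9604 to 12288 normalized counts in controls and 7305 to 11466 with IL-4, and did not pass (-0.16 ± 0.17, adjusted p = 0.50).

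On chromosome 6, Asb4, a subunit of a ubiquitin ligase, rose from between 33.3 and 43.2 to between 83.6 and 91.8 normalized counts (log2 fold change 1.24 ± 0.16, SE, n = 3 and 3, edgeR adjusted p = 0.00048). Its neighbour Peg10, derived from a retrotransposon and needed for the placenta, fell from between 367 and 481 to between 167 and 235 (-1.07 ± 0.15, adjusted p = 0.00077). Neighbours in one imprinted domain thus moved in opposite directions. Asb4 is assigned to the maternal allele and Peg10 to the paternal one, but other genes of the domain did not follow such a split. In the same domain the paternally expressed Sgce was higher (0.51 ± 0.07, adjusted p = 0.00072). Ppp1r9a, assigned to the maternal allele, was lower (-0.61 ± 0.15, adjusted p = 0.014). Of genes elsewhere, Nnat, a small membrane protein that acts on calcium handling, had 37.1 to 45.1 normalized counts in controls and 14.5 to 26.7 with IL-4 (-1.09 ± 0.25, adjusted p = 0.0099). Zim1, a zinc finger gene beside Peg3, had 10 to 13 reads in controls and 2 to 5 with IL-4 (-1.58 ± 0.41, adjusted p = 0.017), and was lost in 5 of 15 other settings.

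Sorted by the allele each gene is known to be expressed from, a grouping made after the values were seen, none of the 5 maternally expressed genes among the 10 was lower and none of the 5 paternally expressed ones was higher in edgeR's or DESeq2's test. At an unadjusted p under 0.05 in edgeR's test, 0 and 1 (Ndn) were, and Ndn passed the adjusted threshold with the skew covariate. In the list of other imprinted genes the split was not as clean, and the counts stand against 19% of all genes higher and 18.4% lower. Of 16 tested genes assigned to the maternal allele 6 were higher and 2 lower, with a median log2 fold change of 0.11. Of 20 tested genes assigned to the paternal allele 3 were higher (Igf2, Sgce and Snrpn) and 4 lower, with a median of -0.033. For several of these genes imprinting is known only in some tissues. With no reads by allele, whether the assignment holds in these cells cannot be read.

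**Figure D3:**
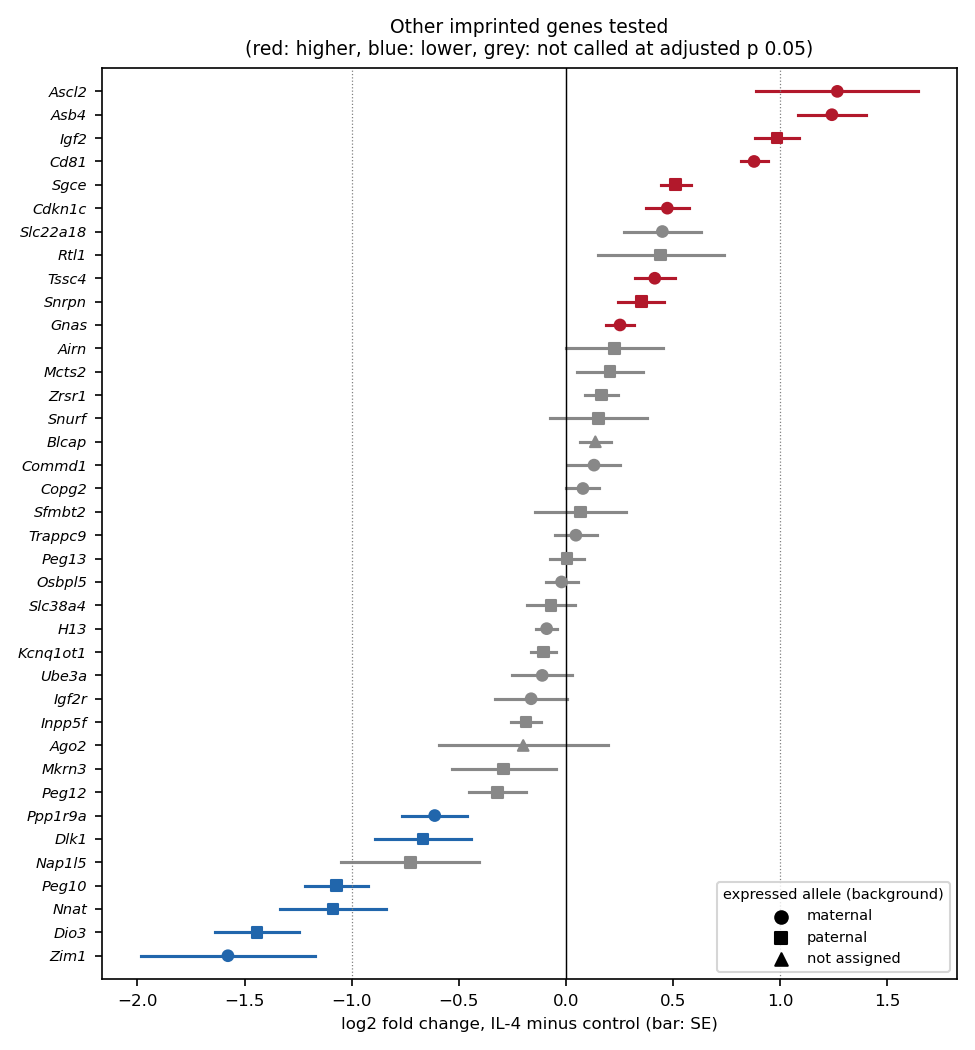
Fitted log2 fold change of the 38 other imprinted genes tested (IL-4 minus control, horizontal axis, bars are SE), in order of the fold change. Circles are genes known as maternally expressed in at least some tissues, squares paternally expressed and triangles not assigned. Red genes were higher, blue ones lower and grey ones not called; Ascl2 and Asb4 lie past 1, and Peg10, Nnat, Dio3 and Zim1 past -1.

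Imprints are kept through cell division by DNMT1, which copies methylation to the new strand, with its partner UHRF1, and by the zinc finger proteins ZFP57 and ZFP445, which bring TRIM28 to methylated control regions. Of 17 genes of imprint maintenance and of DNA methylation that were listed and tested, 6 were lower and 11 did not pass, or 35.3% called against 37.4% of all genes. None was higher in edgeR's or DESeq2's test, also at an unadjusted p under 0.05, but 3 were (Dnmt3a, Zfp445 and Tet2) once IL-4 replicate 6 was left out. Without both skewed libraries 11 of the 17 were called, where 50.5% of all genes were. The median log2 fold change was -0.23. Uhrf1 had 1517 to 1695 normalized counts in controls and 800 to 900 with IL-4, Zfp57 had 459 to 490 and 237 to 260, and Dnmt1 had 3417 to 3699 and 2012 to 2705. The edgeR adjusted p-values were 3.97e-05, 5.56e-05 and 0.0043. Hells, a chromatin remodeller, and Trim28 were also lower, by 0.52 and 0.23 on the log2 scale. These genes, unlike Dppa3, were picked after their values were seen. Dppa3, which protects methylation in the early embryo, was the only one past a log2 fold change of 1. It had 45 reads in the 3 controls together and 1 read in the 3 IL-4 libraries, a ratio of 40.4 with an exact 95% interval of 6.90 to 1630 that covers counting error only. Dnmt3a, a methyltransferase that sets new methylation, had 2016 to 2301 and 2143 to 2784 normalized counts (adjusted p = 0.11).

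The shares of small RNA reads that the miRNAs of the chromosome 12 interval took on day 2 overlapped between the groups. Together, the 103 listed miRNAs held 3.62% and 4.28% of the mature miRNA reads in the 2 controls and 3.84% and 4.77% where IL-4 was present. The controls differed from each other by more than the means of the groups did. Counting error is small at this depth, since the exact 95% interval of the lowest share was 3.62% to 3.63%. The 5 most abundant of them held 85.3% to 87.5% of the cluster's reads, and miR-127-3p, which lies opposite Rtl1 and is known to cut its mRNA, held 50.8% to 56.5%.

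None of the 88 tested miRNAs of imprinted loci passed an adjusted p of 0.05 in edgeR's test, and 1 had an unadjusted p under 0.05, against 6.09% of all 640 miRNAs. None of all 640 passed the adjusted threshold either (39 at an unadjusted p under 0.05). DESeq2 called 12 of 1239 miRNAs, none of them from imprinted loci. That 1 was miR-667-3p, whose name falls outside the naming rule, with 735 and 680 normalized counts in controls and 393 and 530 with IL-4 (log2 fold change -0.62 ± 0.23, SE, n = 2 and 2, unadjusted p = 0.033 and adjusted p = 0.73 in edgeR's test). Of the 88, 50 were above 0 and 38 below, with a median log2 fold change of 0.04 beside -0.02 for all miRNAs.

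miR-127-3p had 560464 and 708322 normalized counts in controls and 632718 and 710990 with IL-4. The 2 groups overlapped, and the log2 fold change was 0.08 ± 0.21 (SE, n = 2 and 2, 95% interval -0.42 to 0.59). miR-411-5p had 167324 and 223471 against 169596 and 206364 (-0.06 ± 0.23). miR-541-5p, the only one of the 5 whose hairpin lies within Mirg, had 172596 and 139413 against 127869 and 116495. Its groups did not overlap, but its log2 fold change of -0.35 ± 0.20 did not pass (95% interval -0.84 to 0.13, edgeR adjusted p = 0.86). miR-434-3p and miR-136-3p had log2 fold changes of 0.03 ± 0.21 and 0.12 ± 0.22. The upper ends of the 5 intervals ran from 0.13 (miR-541-5p) to 0.63 (miR-136-3p). On day 4 the 95% interval was 0.12 to 0.51 for Meg3 RNA and 0.39 to 0.98 for Mirg RNA. All 5 intervals overlapped that of Meg3, and all but that of miR-541-5p overlapped that of Mirg.

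By position, the 19 tested miRNAs between Meg3 and Rian had a median log2 fold change of 0.10 (13 above 0), the 45 between Rian and Mirg -0.02 (20 above 0) and the 16 within Mirg 0.06 (11 above 0). The medians were not tested against each other. The miR-379-3p and miR-411-3p that share a seed had log2 fold changes of -0.22 ± 0.21 and -0.42 ± 0.20 (SE, n = 2 and 2).

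**Figure D4:**
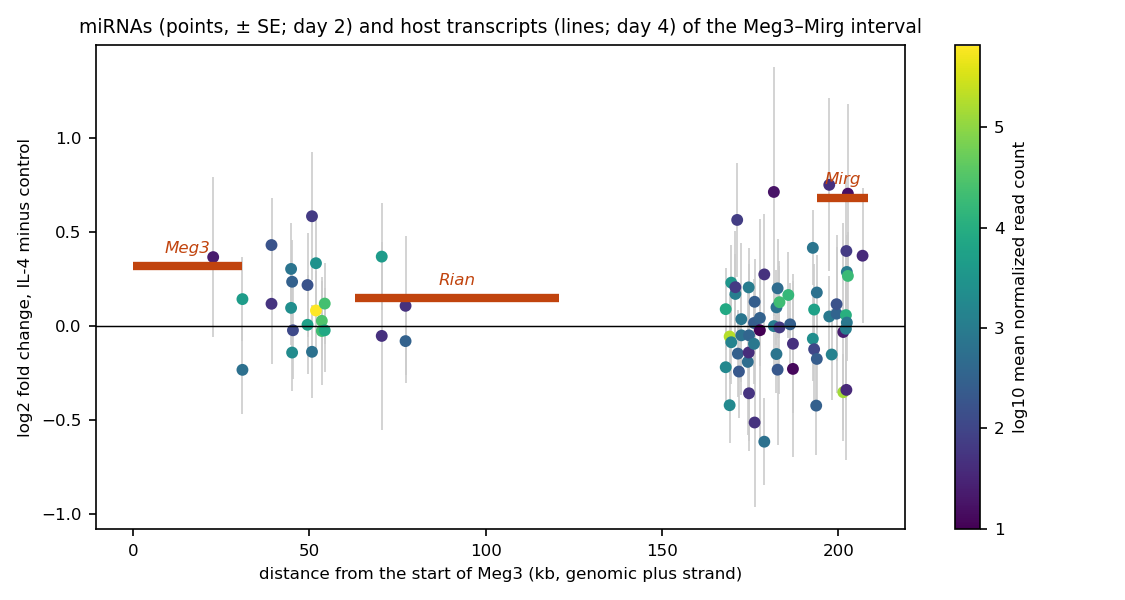
Log2 fold change (IL-4 minus control, vertical axis) of the 85 tested miRNAs of the interval on day 2, placed by the distance of their hairpin from the start of Meg3 in kilobases, with SE bars and coloured by the log10 of the mean normalized count. Orange lines are the host RNAs on day 4, drawn over their span at their fitted values of 0.32 (Meg3), 0.15 (Rian) and 0.68 (Mirg). The miRNAs lie on both sides of 0 along the interval, 47 above and 38 below. Of the 5 most abundant, 4 lie within 0.12 of 0 and miR-541-5p at -0.35.

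The pattern of H19 over the 6 mRNA libraries was compared with that of 11418 genes with a mean of at least 100 normalized counts, as the root mean square distance between log2 values centred per gene. The closest genes were Fxyd6, a regulator of the sodium pump, Ephx2, a soluble epoxide hydrolase, and Dpt, a matrix protein of fibroblasts, at distances of 0.064, 0.066 and 0.073. For Meg3 they were Vamp2, Zkscan14 and Sirt3, at 0.020, 0.024 and 0.027. From Meg3, Rian ranked 1652 (0.14) and Mirg 5267 (0.22), so the 3 RNAs of the interval were not close neighbours by this measure in these libraries. The distance takes in the group differences given above and the noise of low counts. The ranks are therefore not separate evidence on whether the 3 RNAs are regulated together.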

How the data were processed

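For mRNA-seq (poly(A) selection, BGISEQ-500), the authors filtered reads with SOAPnuke and obtained gene levels with Bowtie2 and RSEM on mm10. HISAT and StringTie are also named in the submitters' processing notes. The deposited files hold expected counts, which are not normalized and need not be whole where genes share reads, and FPKM, in which the authors divided by transcript length and by library size. A gene not listed in a library was taken as 0. For small RNA, the authors deposited raw read counts per precursor and arm from the miRDeep2 Quantifier with miRBase. The other arm columns of these files hold sequences and joined counts. A miRNA with several precursors was given its largest count.

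Here, 1 row with no gene name, at most 0.000224% of the counts, was left out. Rounded expected counts passed filterByExpr (10 as the minimum count, 15 in total), were scaled by TMM and tested with edgeR 4.0.16 (quasi-likelihood, R 4.3.3), all genes together, with Benjamini-Hochberg adjustment. The call threshold was an adjusted p of 0.05. Normalized counts are counts over the scaled library size, times its mean. Intervals are at 95%, and intervals on reads cover counting error only. Levels of different genes were compared by FPKM. Alternatives were DESeq2 1.42.0, limma 3.58.1 on FPKM in log2 with a pseudocount of 1 or of 0.1, other scalings, no filter, a replicate block (small RNA), sums over precursors and each library left out. The fits without both skewed libraries and with the skew as a covariate were additions made once the data were known. The scripts were tested on simulated data. Tables and plots were made in Python 3.11.15 (matplotlib 3.10.9, scipy 1.17.1, pandas 2.3.3, numpy 2.4.6).

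The members and gene lists were chosen with earlier results of these data known. Named were the 10 members, Igf2, Igf2r, Cdkn1c, Dlk1, other imprinted or maintenance genes called with a log2 fold change beyond 1, both arms of miR-675 and miR-335, and the 5 most abundant miRNAs of the interval. Other genes named are parts of the domains or were chosen after their values were seen. Coordinates and miRNA sequences are those of RefSeq on GRCm38, and 103 of 107 listed miRNAs of these loci had the same sequence in the files.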

Additional observations from a re-analysis of the deposited data

How the results depend on the processing

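H19, Mirg, Mest and Plagl1 kept their direction and their call in all 15 other settings. Of the 10 imprinted genes, 5 were higher without IL-4 replicate 6, 5 without both skewed libraries and 6 with the skew covariate, against 3. In those settings 43.9%, 50.5% and 61.4% of all genes were called, against 37.4%. With one library left out at a time, 2 to 5 were higher, 2 to 3 lower, and 2 to 3 past a log2 fold change of 1. On log2(FPKM + 1), which compresses low genes by construction, 1 was past it. Of the other imprinted genes, 9 were higher and 6 lower. There were 5 and 12 under library totals, 4 and 11 on log2(FPKM + 1), 5 and 11 on log2(FPKM + 0.1), 7 and 6 without both skewed libraries and 13 and 12 with the covariate. The 6 maintenance genes called became 10 under library totals and both FPKM scales, 11 without both skewed libraries and 12 with the covariate. Library totals and the FPKM scales called 47.1% to 47.6% of all genes. The cause of these moves was not tested.

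Signs turned for Rian (-0.0261 under library totals, -0.0272 and -0.0277 on the FPKM scales), Ndn (-0.0122, -0.0143 and -0.0147), Igf2r without IL-4 replicate 6 (0.0209), miR-411-5p (0.0617 under library totals and 0.00447 with no filter) and miR-434-3p (-0.00864 with sums over precursors). With single libraries left out, log2 fold changes ran from -0.457 to 0.886 for miR-675-3p, -0.574 to 0.907 for miR-335-5p, -0.0573 to 0.290 for miR-127-3p, -0.229 to 0.197 for miR-411-5p, -0.178 to 0.183 for miR-434-3p, -0.0188 to 0.326 for miR-136-3p and -0.272 to 0.0209 for Igf2r.

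No paired analysis was possible because the mRNA libraries of the groups share no replicate number. In small RNA, libraries with the same number deviated together (r = 0.455 across 640 miRNAs, which are not independent), but nothing says that a number marks a shared culture. With a replicate block, 1 imprinted-locus miRNA passed an adjusted p of 0.05 (miR-667-3p, -0.63, adjusted p = 0.023) and 10 of 88 an unadjusted one (11.4%), where 31 of all 640 miRNAs passed the adjusted and 105 (16.4%) the unadjusted threshold. With 2 libraries a group, depth is not what limits the small RNA comparison for abundant miRNAs, as the spread between libraries exceeds counting error.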
